A study of Mus musculus with 16 samples.

Results

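CAST is an inbred mouse strain derived from wild animals, and its pancreatic islets were compared here with those of 7 other founder strains of the Diversity Outbred population. The 2 CAST samples, 1 female and 1 male, were set against 14 samples of 16 in all. The other groups were 129 (129S1_SvImJ), AJ (A_J), B6 (C57BL/6J), NOD (NOD_ShiLtJ), NZO (NZO_HlLtJ), PWK (PWK_PhJ) and WSB (WSB_EiJ), each with 1 female and 1 male. PWK and WSB are wild-derived like CAST (CAST_EiJ), whereas the remaining 5 strains are classical inbred strains. Strain and sex came from the labels. The labels give no treatment, and neither the age of the mice, their diet, nor the number of animals behind a sample is given in the sources used here. Each sample underwent ATAC-seq, in which a transposase inserts sequencing adapters into open chromatin. Every sample was aligned to the reference genome of B6 (mm10), CAST included.

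Islets are clusters of endocrine cells, mostly insulin-secreting beta cells, together with glucagon, somatostatin and pancreatic polypeptide cells, vessels and nerves. Open regions mark promoters, where transcription starts, and distal enhancers, where transcription factors bind and act on genes at a distance. In beta cells, glucose metabolism closes ATP-sensitive potassium channels, calcium enters, and insulin granules fuse with the membrane. Incretin hormones raise cyclic AMP in these cells, which activates the CREB family of factors that bind the palindrome called the cAMP response element.

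Peaks of the 16 samples that touched or overlapped were merged into 347712 regions on chromosomes 1 to 19, of which 40940 were called in all 16 samples. These are called shared regions below, and their median width was 1144.5 bases. The value of a sample in a region is the signal at the highest summit. Scaled signal is this value divided by the median of that sample over the shared regions, so that 1 is the typical shared region. Log2 differences are CAST minus the mean of the other 7 strains on the log2(signal + 1) scale, centred on the same median, and they understate changes where the signal is low.

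A few reference sequences show the regions the results turn on. All are mm10, plus strand, and are centred on the summit of a region or on a motif. In the 200-base sequences, capitals mark matches to a set of 12 motif strings searched on both strands. The first is the 200 bases at the CAST summit of the named promoter region with the largest increase, at an inner start of Trio (chr15:27847485-27847684). It holds none of the strings.
Trio: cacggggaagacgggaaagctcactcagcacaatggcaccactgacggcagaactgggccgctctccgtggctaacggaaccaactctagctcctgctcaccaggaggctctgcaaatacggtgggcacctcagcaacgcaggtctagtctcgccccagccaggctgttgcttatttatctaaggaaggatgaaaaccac

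The next pair are summits of distal regions that were low or absent in CAST, near Tmem229b-ps (chr10:53466372-53466571) and near Gm25956 (chr7:54156658-54156857). The second holds an NK2 string (CACTTNA, here on the minus strand), a FOX string (TGTTTAC), an NFY string (CCAAT) and an AP-1 string (TGANTCA). Among the 24171 distal shared regions, those strings lay in 12.9%, 8.25%, 23.4% and 17.1% of the summit windows of the other strains, respectively.
Tmem229b-ps: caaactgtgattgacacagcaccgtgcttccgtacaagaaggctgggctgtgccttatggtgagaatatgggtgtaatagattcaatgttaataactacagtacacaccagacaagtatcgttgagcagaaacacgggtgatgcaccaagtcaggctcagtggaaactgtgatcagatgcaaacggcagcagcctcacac
Gm25956: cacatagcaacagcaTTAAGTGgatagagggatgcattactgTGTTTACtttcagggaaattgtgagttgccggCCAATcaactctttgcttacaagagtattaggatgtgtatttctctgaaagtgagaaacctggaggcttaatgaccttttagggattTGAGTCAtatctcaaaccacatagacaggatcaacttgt

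The last set are 60 bases around the cAMP response element (TGACGTCA, the same on both strands) in 5 distal regions that were higher in CAST, picked after their values were seen. They lie near Gm22084 (chr5:75367523-75367582), in introns of Pde3a (chr6:141352457-141352516) and Ppard (chr17:28263681-28263740), in a region of Magi2 that reaches an exon (chr5:20610748-20610807), and near 4931415C17Rik (chr8:12689128-12689187). This string lay in 0.703% of distal shared regions, and it alone is in capitals here.
Gm22084: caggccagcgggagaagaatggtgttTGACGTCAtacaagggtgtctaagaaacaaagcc
Pde3a: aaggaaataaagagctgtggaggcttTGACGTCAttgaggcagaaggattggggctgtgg
Magi2: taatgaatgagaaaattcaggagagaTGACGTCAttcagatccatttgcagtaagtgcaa
4931415C17Rik: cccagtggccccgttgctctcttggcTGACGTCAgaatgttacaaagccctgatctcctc
Ppard: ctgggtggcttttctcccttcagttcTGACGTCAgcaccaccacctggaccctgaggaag

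The CAST lists were long, wide and strong among the 8 strains. The CAST female had 140841 peaks over 77.2 Mb and the CAST male 134813 over 78.2 Mb, against 77887 to 167051 peaks and 33.1 to 81.5 Mb in the other samples. As strain means, CAST ranked 1 of 8 in covered bases, 2 in peak number and 5 in the share of regions at promoters. The median summit signal over shared regions was 106 and 136 in the CAST samples, and between 32 and 106 in the others. The lists give no read totals, read depth per sample was not used here, and its part in these ranks was not tested. Regions at annotated starts of Ins1, Ins2, Pdx1, Nkx6-1, Mafa, Slc2a2 and Gcg were called in both CAST samples. Those of Ins2 and Slc2a2 lay 62757 and 23598 bases from the outermost annotated start. At the promoters of the hormone genes Sst and Ppy, peaks were rare in all strains. Sst had one in the PWK female alone, and Ppy in the CAST female (0.0849) and the NZO male (0.255). In bulk islets, fewer cells of a type and less accessible chromatin per cell cannot be told apart.

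Regions that differed in CAST were more often lower than higher. With limma, 2793 shared regions (6.82%) were higher and 5636 (13.8%) were lower in CAST than in the mean of the other 7 strains (adjusted p under 0.05). The changes were larger on the lower side, with a median log2 difference of -1.07 against 0.89 on the higher side. A difference of at least 2 was reached by 460 lower and 57 higher regions, and of at least 3 by 67 and 5. Only regions with a peak in all 16 samples were tested, which leaves out signals too low to be called. In scaled signal that limit may lie lower in CAST, whose medians were 106 and 136, against 32 to 106 in the others. Its part in the unequal sizes and counts was not tested. Both CAST samples lay above all 14 others in 1936 regions (4.73%) and below all of them in 3530 (8.62%). Of the regions that limma called, 1509 higher and 3246 lower ones did not overlap the other strains in this way. The last region inside the threshold had a log2 difference of 0.55 (adjusted p = 0.0499953) and the first outside -0.99 (adjusted p = 0.0500323).

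These counts depended on the scale and on single samples. Higher calls were 33.1% of all calls. With no centring, where CAST's stronger signal moves the median of all shared regions by 0.77, they were 95.4%, so directions are relative to the typical shared region. Without the CAST female, 518 higher and 1797 lower regions were called, and without the CAST male 415 and 1966, the lone sample being assumed to vary like the others. Without the NZO male, 4841 regions were called higher and 7652 lower. The female and the male of CAST differed by a median of 0.198 on the log2 scale, against 0.166 in WSB to 0.467 in NZO.

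Set against the remaining strains in the same way, no other strain gave as many calls. PWK came next with 2180 higher and 2355 lower, and the others had between 415 (129) and 1503 (AJ) higher and between 558 (NOD) and 1285 (WSB) lower. The plot of counts by strain shows both kinds of count. These contrasts share samples, so they are given side by side and not tested against each other.

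**Figure D1:**
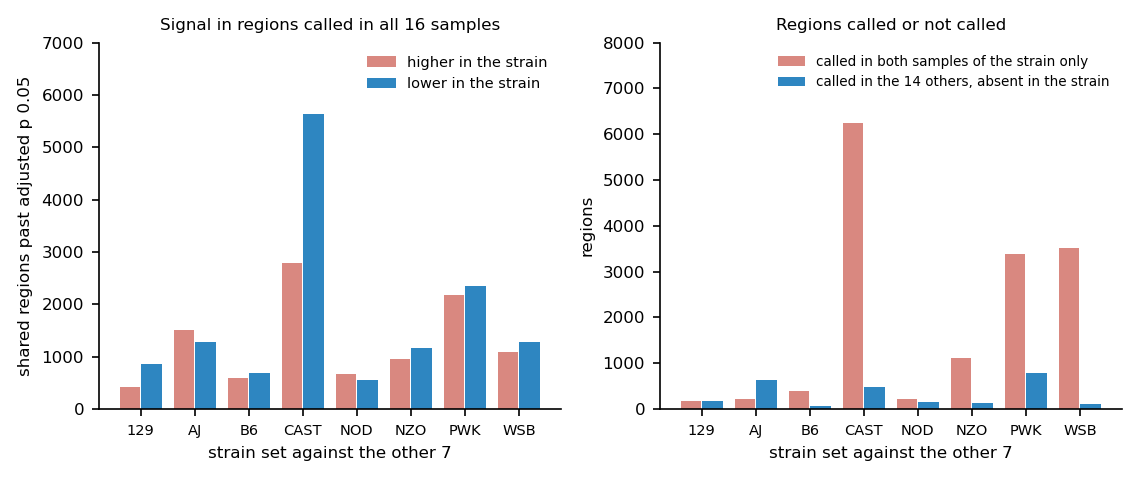
Bars give, for each strain set against the other 7, the number of shared regions called higher or lower by limma (left) and the number of regions called in both samples of that strain alone or in all 14 other samples but neither of that strain (right). CAST had the most lower calls (5636) and the most regions of its own (6249), while PWK had the most regions missing in it alone (787).

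Before centring by GC content, the excess of lower over higher regions was larger away from promoters. Of 16769 promoter regions, within 3 kb of any annotated transcript start, 983 (5.86%) were higher and 1631 (9.73%) lower. Of 24171 distal regions, 1810 (7.49%) were higher and 4005 (16.6%) lower. Intergenic regions gave 732 higher and 1928 lower of 11006, intronic ones 877 and 1794 of 11088, and exonic ones 201 and 283 of 2077. With the regions split into 4 equal bins by GC content, 481 were higher and 1851 lower in the lowest bin, and 663 and 639 in the highest, of 10235 each. With samples centred within 10 bins of GC content, the totals were 3470 higher and 5860 lower. Of these, 2461 higher and 3797 lower were distal. As a share of regions, the excess of lower calls was then no longer larger away from promoters.

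The named regions lay where both CAST samples fell outside all others and the difference was largest. Promoter here means any annotated transcript start. Of the 22 regions named under it, 8 lay within 3 kb of the outermost start of their gene and 14 lay further inside it.

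Trio encodes an exchange factor for small GTPases of the cytoskeleton. Its region (chr15:27846561-27851917, 730 coding bases) lay 173931 bases from the outermost start. Scaled signal there was 4.65 in the CAST female and 4.91 in the CAST male, and 0.312, 0.481 and 0.708 as lowest, median and highest of the others. Both CAST samples were far above the 14 others, whose values did not reach the sample medians. The log2 difference was 3.29 ± 0.22 (SE, limma adjusted p = 1.1e-06). At the outermost start of the gene the difference was -0.29 ± 0.17 (adjusted p = 0.256).

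Dynlt1a and Dynlt1b are near-identical copies of a dynein light chain gene on chromosome 17, and reads cannot be split between such copies with certainty. The region over the start of Dynlt1a (chr17:6312560-6318503) had 11.4 and 9.29 in CAST, and 1.14, 1.47 and 3.19 in the others. The one over Dynlt1b (chr17:6429086-6432308) had 11.8 and 10.4, and 1.35, 2.49 and 8.41 in the others. In both, the highest of the other samples was the 129 female. The differences were 2.74 ± 0.20 (adjusted p = 1.61e-06) and 2.13 ± 0.26 (adjusted p = 9.26e-05).

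The regions at Stox1, Naa15 and Lrp11 rose as well. At Stox1, a winged-helix gene, CAST had 1.78 and 1.57 and the others 0.174, 0.328 and 0.494 (chr10:62721354-62723036, 3092 bases from the outermost start). The difference was 2.36 ± 0.20 (adjusted p = 5.04e-06). Upstream of Naa15 (chr3:51412293-51414068), a subunit of an N-terminal acetyltransferase, CAST had 2.48 and 3.43 and the others 0.382, 0.633 and 1.05. The difference was 2.16 ± 0.24 (adjusted p = 4.86e-05).

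At Lrp11, a member of the LDL receptor-related family, the direction depended on the place within the gene. The region 4921 bases inside (chr10:7594721-7595704) had 5.24 and 5.39 in CAST and 0.306, 1.37 and 1.99 in the others, with the 2 PWK samples lowest. The difference was 2.18 ± 0.28 (adjusted p = 0.000128). At the outermost start the difference was -0.76 ± 0.17 (adjusted p = 0.00666), so that the start itself was lower in CAST.

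Among promoter regions that fell, Cdh7, a cadherin of neural tissues, changed most. Its region covers the outermost start (chr1:109981400-109985799) and had 0.151 and 0.206 in CAST against 0.709, 3.01 and 4.86 in the others. Each of the other samples exceeded both CAST samples, the NZO male by the least. The difference was -3.84 ± 0.30 (adjusted p = 3.08e-06).

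Rab27a encodes a GTPase that tethers insulin granules at the plasma membrane. The region that fell (chr9:73093833-73096242) covers an inner transcript start near the 3′ end of the gene, with 789 untranslated and 196 coding bases. It had 0.208 and 0.132 in CAST and 1.02, 2.06 and 3.02 in the others, which left a wide gap between the groups. The difference was -3.48 ± 0.20 (adjusted p = 2.58e-07). At the outermost start, 48979 bases away, it was 0.23 ± 0.20 (adjusted p = 0.451).

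The remaining named promoter regions that fell were also at inner starts, apart from that of Cntnap5c. Rwdd1 had 0.283 and 0.169 in CAST and 1.25, 2.18 and 2.88 in the others (-3.15 ± 0.26, adjusted p = 4.5e-06). Cntnap5c, a contactin-associated protein of neurons, had 0.311 and 0.368 against 1.42, 2.45 and 5.18 at its outermost start (-2.83 ± 0.23, adjusted p = 3.94e-06). Groups did not overlap at either. March1, an E3 ligase that removes MHC class II from the cell surface, had 0.151 and 0.118 against 0.438, 1.03 and 1.68 (-2.86 ± 0.22, adjusted p = 3.03e-06). Tnip3, an inhibitor of NF-kappa-B signalling, had 0.387 and 0.434 against 0.656, 4.29 and 6.78 (-2.94 ± 0.33, adjusted p = 4.72e-05). The PWK samples were the nearest to CAST at Tnip3, with 0.726 and 0.656, and CAST minus PWK was not past the threshold there (-0.75 ± 0.43, adjusted p = 0.282).

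Distal regions that rose included introns. That of Psd3, an exchange factor for ARF6 (chr8:67996532-67999199), had 5.25 and 6.78, and 0.274, 0.547 and 2.06 in the others (3.17 ± 0.19, adjusted p = 4.31e-07). The PWK samples held the upper end of that range, and CAST minus PWK was 1.71 ± 0.26 (adjusted p = 0.000824). Tmem163, a zinc transporter of vesicles, had 8.12 and 9.35 against 0.465, 0.989 and 3.74 (chr1:127493865-127494963, 3.07 ± 0.42, adjusted p = 0.000225). Ssu2 had 1.94 and 2.88 against 0.0909, 0.405 and 0.688 (chr6:112364512-112366041, 2.73 ± 0.28, adjusted p = 2.95e-05). CAST exceeded every other sample at these 3 introns.

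Distal regions that fell gave the largest changes among the named regions. The intergenic region 6965 bases from Tmem229b-ps (chr10:53465638-53467999) had 0.104 and 0.0882 in CAST and 0.219, 2.97 and 5.72 in the others (-4.28 ± 0.30, adjusted p = 1.25e-06). The PWK samples were low there too, with a mean of 0.238, and CAST minus PWK was -1.31 ± 0.39 (adjusted p = 0.043). An intergenic region near Gm40466 (chr8:19975600-19982023) had 0.717 and 0.559 against 6.1, 10.6 and 21.8 (-4.16 ± 0.19, adjusted p = 9.9e-08). It lies in a cluster of duplicated genes, so its reads may be split between copies. A region over an exon of Itih2, a serum hyaluronan-binding protein (chr2:10093767-10095799), had 0.33 and 0.287 against 2.81, 5.5 and 7.25 (-4.02 ± 0.17, adjusted p = 4.93e-08). In all 3, the lowest of the other samples stood above both CAST samples, and it was a PWK sample except near Gm40466.

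**Figure D2:**
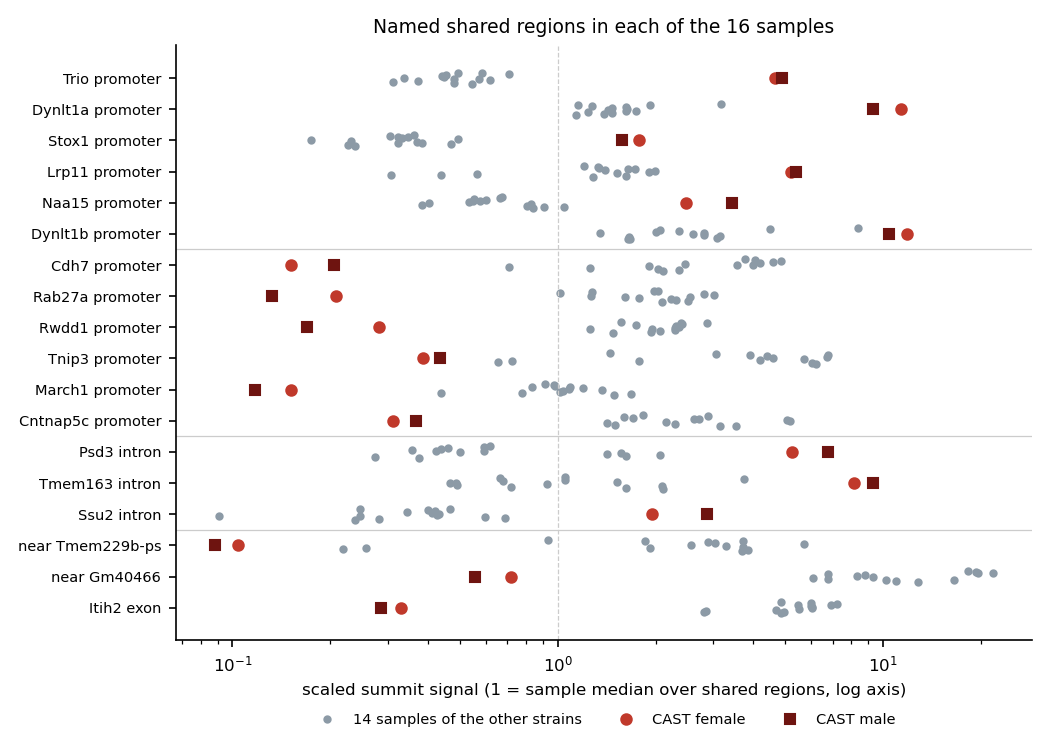
Scaled summit signal on a log axis in each of the 16 samples for 18 of the named shared regions, with the CAST female as circles, the CAST male as squares and the 14 other samples in grey. Each panel between lines holds regions chosen for one direction (higher or lower, promoter or distal), so that CAST lies to one side of the others in each of them by the choice itself.

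Fewer regions were called when CAST was set against 1 other wild-derived strain at a time, but such contrasts are less precise. At Trio the standard error was 0.295 for CAST minus PWK, and 0.223 against the mean of the other strains. The counts below therefore cannot be set against those for the mean of the other strains. No contrast with a single classical strain is given, so whether CAST differed less from PWK and WSB was not tested. CAST minus PWK gave 5264 calls (12.9%), 1806 higher and 3458 lower, and CAST minus WSB gave 4656 (11.4%), 1528 higher and 3128 lower. Both contrasts share the CAST samples. Without the CAST female the counts were 1797 and 1692, and without the CAST male 1710 and 1758. Leaving out a PWK sample gave 3333 or 3454 calls against PWK, and leaving out a WSB sample 1585 or 1819 against WSB. PWK was the strain nearest to CAST at 771 of the higher regions (27.6%) and 1438 of the lower ones (25.5%), as a description of the called regions. WSB came next at both, with 19.5% and 21.8%, closely followed by 129 at the higher regions (17.15%) and by NZO at the lower ones (21.0%).

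Genes of the endocrine pancreas were described by the strongest region within 3 kb of any of their starts. Over all coding genes with such a shared region, 509 (4.82%) were higher and 820 (7.77%) lower of 10555, and the median difference was 0.10. Of the genes named from the lists below, 33 passed the test, and 3 of them (Rab27a, Jazf1 and H2-D1) also passed when any 1 CAST sample was left out. Without the CAST female the other 30 had adjusted p-values above 0.05, and for 10 genes leaving out a sample of another strain also ended the call. Among these were Chgb, Foxa2, Foxo1, Etv1, Kcnj11 with Abcc8 (1 region counted for both genes), Cacna1e, Edem1 and Jun.

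Insulin granule and hormone genes gave 4 higher and 0 lower of 14 tested, with a list median of 0.24. That holds for the strongest promoter region of each gene only. Of 111 shared regions near these genes, 11 were higher and 14 lower, beside 6.82% and 13.8% over all shared regions. Ins2 encodes insulin, and its promoter region had 1.75 and 1.48 in CAST and 0.382, 0.737 and 1.34 in the others. Both CAST samples were above the 14 others (1.12 ± 0.22, adjusted p = 0.00297, and 0.0694 without the CAST female). The granule protein Ptprn had 3.5 and 3.13 against 1.31, 1.96 and 2.88 (0.81 ± 0.18, adjusted p = 0.00759). The proinsulin convertase Pcsk1 had 4.29 and 4.07 against 0.945, 2.56 and 3.79 (0.75 ± 0.20, adjusted p = 0.019). Chgb, a granin, had 1.78 and 1.87 against 0.904, 1.25 and 1.81, the highest being the 129 female (0.57 ± 0.18, adjusted p = 0.0408). Ins1 was at 4.31 and 4.33 in CAST and between 1.45 and 6.49 in the others (0.25 ± 0.27, adjusted p = 0.546), a pair of values well inside the range.

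Transcription factors of beta and other endocrine cells gave 4 higher and 0 lower of 20, median 0.17. Of 98 shared regions near these genes, 11 were higher and 8 lower. Myt1, a zinc finger factor of endocrine development, had, 3329 bases from its outermost start, 1.49 and 1.26 against 0.418, 0.668 and 1.17 (0.97 ± 0.18, adjusted p = 0.00229). Nkx2-2, which keeps beta cell identity, had 2.77 and 2.68 against 1.02, 1.67 and 2.6 (0.75 ± 0.20, adjusted p = 0.0161). CAST did not overlap the others at these promoters. Foxo1 (0.69 ± 0.21, adjusted p = 0.0324) and Foxa2 (0.66 ± 0.22, adjusted p = 0.0453) were also higher, and there the 129 female, and at Foxa2 also the PWK male, reached the CAST values. Pdx1 (-0.14 ± 0.30, adjusted p = 0.781) and Nkx6-1 (0.06 ± 0.22, adjusted p = 0.868) did not pass.

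Of 25 shared regions near genes of alpha, delta, gamma and epsilon cells, 2 were higher and 3 lower. By promoter region, these genes gave 0 higher and 1 lower of 5 tested, median -0.11. The one that fell was Etv1 (-0.59 ± 0.18, adjusted p = 0.0312), an ETS factor, with 4.82 and 6.53 in CAST inside a range of 4.75 to 12.4. Hhex, a delta cell factor, was not called in all samples. It had 1 and 1.26 in CAST and a median of 0.187 in the others, among which the NZO male reached 1.04.

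Genes of glucose sensing and excitation gave 3 higher and 0 lower of 13, median 0.26. Of 121 shared regions near these genes, 13 were higher and 8 lower. Kcnj11 and Abcc8, the pore and the sulfonylurea receptor of the ATP-sensitive potassium channel, share 1 wide region (chr7:46095200-46120819), which was counted for both genes. It covers the outermost start of Kcnj11 and lies 59214 bases from that of Abcc8. It had 2.54 and 2.36 in CAST and 0.982, 1.32 and 2.76 in the others (0.79 ± 0.24, adjusted p = 0.0321), and by the mean signal of its peaks the difference turned to -0.17 (adjusted p = 0.592). Cacna1e, a calcium channel subunit, was at 0.55 ± 0.17 (adjusted p = 0.0337) at an inner start, 67140 bases from its outermost one.

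Of 91 shared regions near exocytosis genes, 7 were higher and 6 lower. By promoter region, exocytosis genes gave 0 higher and 2 lower of 14, median 0.16. These were Rab27a, at the inner start described above, and Cadps2, which primes granules and had 1.8 and 1.94 in CAST and 2.17, 3.15 and 3.78 in the others. Both CAST values lay below the 14 (-0.66 ± 0.19, adjusted p = 0.025). G protein receptors and adenylyl cyclases gave 1 higher and 0 lower of 13, namely Adra2a, the adrenergic receptor that restrains insulin release (0.76 ± 0.22, adjusted p = 0.0279). The median of that list was 0.18, and of 73 shared regions near its genes 8 were higher and 3 lower.

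Among genes tied to type 2 diabetes by human association, 1 was higher and 2 were lower of 21, median 0.04. Of 122 shared regions near these genes, 6 were higher and 14 lower. Ide, the insulin-degrading enzyme, had 1.17 and 0.875 at an inner start against 0.317, 0.504 and 0.726 (1.03 ± 0.21, adjusted p = 0.00379). Jazf1, a zinc finger factor, had 1.04 and 1.05 against 1.76, 2.42 and 3.84, so that the groups were clearly apart (-1.23 ± 0.20, adjusted p = 0.000664). Dgkb, a diacylglycerol kinase, had 0.792 and 1.01 against 1.05, 1.5 and 2.35 at an inner start (-0.81 ± 0.20, adjusted p = 0.0103). In a list of mouse diabetes locus genes, Ptprd was the 1 of 9 that fell (-0.78 ± 0.21, adjusted p = 0.0195) and none rose. Of 74 shared regions near the genes of that list, 6 were higher and 10 lower.

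Interferon and antigen presentation genes gave 5 higher and 2 lower of 25, median 0.16. Of 74 shared regions near these genes, 11 were higher and 3 lower. H2-D1, an MHC class I gene, had 16 and 14 in CAST and 1.86, 3.76 and 10.8 in the others (1.97 ± 0.31, adjusted p = 0.000588). H2-K1, another class I gene, was at 1.03 ± 0.26 (adjusted p = 0.0116). MHC class I genes are near-identical and vary between strains, so that the share of each in these reads is uncertain. Rsad2 (1.06 ± 0.30, adjusted p = 0.0239) and Gbp3 (0.88 ± 0.22, adjusted p = 0.0119) rose, while Ifit2 (-0.83 ± 0.18, adjusted p = 0.00635) and Gbp2 (-0.74 ± 0.17, adjusted p = 0.00932) fell. Interferon-induced genes thus moved in both directions.

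Other lists held few calls. Unfolded protein response genes gave 0 higher and 1 lower of 18, namely Edem1 (-0.53 ± 0.17, adjusted p = 0.0404). Antioxidant genes gave 0 of 16 in either direction, with Sod2 at -0.34 ± 0.17 (adjusted p = 0.187), and clock genes 0 of 19, with Per1 at 0.76 ± 0.30 (adjusted p = 0.0896). Immediate early genes gave 1 and 1 of 17, Egr3 at 0.84 ± 0.22 (adjusted p = 0.0166) and Jun at -0.60 ± 0.20 (adjusted p = 0.0434). Insulin and IGF signalling gave 1 and 0 of 17, which was Foxo1 again, and genes usually silent in beta cells 1 and 0 of 12, which was Cd59a (0.97 ± 0.23, adjusted p = 0.00989). In this order, the list medians were 0.06, 0.16, 0.22, 0.06, 0.01 and 0.24. Those of clock genes and of genes usually silent in beta cells were thus close to that of the insulin granule list (0.24).

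Markers of other cell types were sparse at their promoters. Of 14 leukocyte markers none was called in all 16 samples, and their summed scaled signal was 0.792 in the CAST female and 0.647 in the CAST male, within a range of 0.261 to 3.05 in the others. Sums in CAST also lay inside the range of the others for endothelial markers (1.08 and 1.12), duct markers (3.25 and 2.81), acinar markers (4.13 and 3.33), mesenchymal markers (3.92 and 4.82) and Schwann cell markers (1.93 and 1.68). The single calls in these lists were Cftr (-0.87 ± 0.21, adjusted p = 0.0115), Sox17 (-0.79 ± 0.23, adjusted p = 0.0287) and Acta2 (0.86 ± 0.23, adjusted p = 0.0197). The part of other cell types in the results above was not tested.

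**Figure D3:**
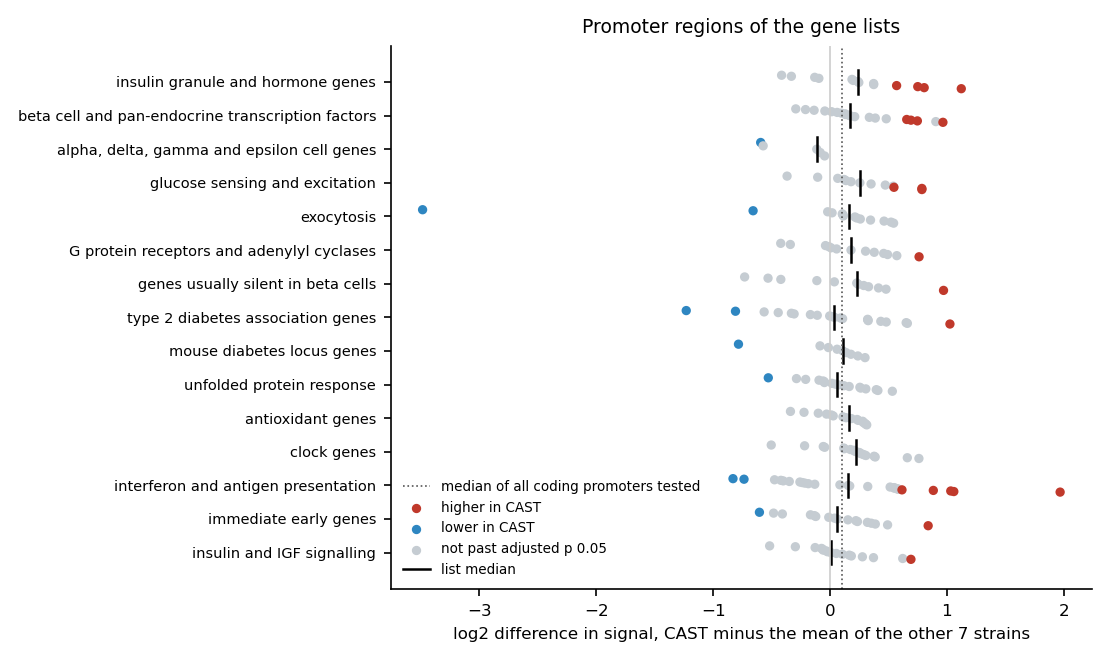
Each point is the promoter region of a gene in 1 of 15 lists, placed by its log2 difference (CAST minus the mean of the other 7 strains), in red or blue where limma called it higher or lower. Black bars are list medians, which lie between -0.11 and 0.26, and the dotted line is the median of all coding promoters (0.10).

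Some genes held several changed regions of 1 direction, picked out after their values were seen, beside 6.82% higher and 13.8% lower over all shared regions. Palld, an actin-associated protein, had 11 lower of 16 shared regions nearest to it and 0 higher. The adhesion gene Lsamp had 11 of 27 lower, the synaptic scaffold gene Dlg2 11 of 34, the receptor phosphatase gene Ptprk 10 of 18 and the ephrin gene Efna5 9 of 13, each with 0 higher. On the other side, Dscam had 5 higher of 8, the potassium channel gene Kcnma1 5 of 15, and Glo1, which clears methylglyoxal, 4 of 4, each with 0 lower. Among promoter regions of 48 potassium channel genes, picked from 8 families in the same way, 1 was higher and 10 were lower (2.08% and 20.8%, against 4.82% and 7.77% of all coding promoters), while their median difference was 0.09.

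Among the 12 motif strings, the cAMP response element lay in distal regions with the highest share of increases. Each region had 2 summit windows, at the highest CAST summit and at the highest summit of the other samples, and either could hold the string. It lay in 0.637% of distal shared regions at CAST summits and in 0.633% at summits of the others. Of 170 distal shared regions with TGACGTCA in a summit window, 41 (24.1%) were higher in CAST, against 7.49% of all distal shared regions, and 15 (8.82%) were lower, against 16.6%. Their median difference was 0.29, against -0.10 for all distal regions. In the same regions the medians of the other strains, each set against its own 7 others, lay between -0.22 (AJ) and 0.09 (NZO), and CAST ranked 1 of 8. This difference between strains was not tested. No other single strain had a window of its own. The set was thus chosen partly through CAST, and the rank does not compare the strains evenly.

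Since calls varied with GC content, the element was also viewed in 3 equal bins of distal regions by GC content. Higher calls made up 30.4%, 21.9% and 24.1% of the regions with the element from the lowest to the highest bin (23, 64 and 83 regions), and 4.58%, 7.34% and 10.5% of all distal regions. After centring within GC bins, 44 of the 170 regions with the element were higher and 12 lower, against 2461 and 3797 of all 24171 distal shared regions. Promoter regions with the element did not stand apart in the same way, with 30 higher (6.85%) and 26 lower (5.94%) of 438, against 5.86% and 9.73% of all promoter regions. Leaving out either CAST sample left fewer distal regions with the element called higher, as it did over all shared regions. The other strings had between 6.67% (NRF1, 30 regions) and 12.3% (ETS, CCGGAAG) of their distal regions higher.

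The 6 such regions with the largest differences, picked after their values were seen, include 5 of the sequences above. The sixth and largest lies wholly in untranslated sequence of Setd7, a lysine methyltransferase gene (chr3:51517422-51519360). It had 1.97 and 1.66 in CAST and 0.209, 0.37 and 0.655 in the others (2.26 ± 0.24, adjusted p = 3.99e-05). The region near Gm22084 had 1.65 and 1.59 against 0.231, 0.323 and 0.903 (2.18 ± 0.30, adjusted p = 0.000228). At both, CAST stood clear of all 14. In Pde3a, a phosphodiesterase that degrades cyclic AMP, CAST had 2.62 and 2.32 and the others 0.362, 0.553 and 1.88 (1.87 ± 0.18, adjusted p = 1.52e-05). The PWK samples were at the upper end there, and CAST minus PWK was 0.52 ± 0.24 (adjusted p = 0.173). Magi2 (1.64 ± 0.31, adjusted p = 0.00214), the region near 4931415C17Rik (1.6 ± 0.29, adjusted p = 0.00191) and Ppard, a lipid-sensing nuclear receptor (1.49 ± 0.26, adjusted p = 0.00127), were also higher. Without the CAST male the calls at Magi2 and near 4931415C17Rik were lost (adjusted p = 0.0675 and 0.0936).

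**Figure D4:**
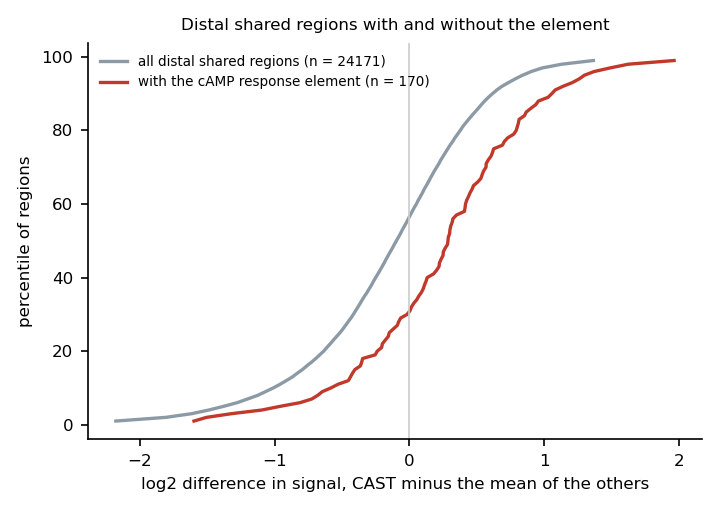
Percentiles of the log2 difference (CAST minus the mean of the other 7 strains) over the 24171 distal shared regions (grey) and over the 170 of them with the cAMP response element (red). The red curve lies to the right of the grey one, with medians of 0.29 and -0.10.

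A larger set of regions was called in CAST and nowhere else. Both CAST samples and no other had a peak in 6249 regions (1.8% of all regions and 5.73% of the 109086 called in both CAST samples). The same count was 3524 for WSB, 3385 for PWK, 1121 for NZO and between 182 and 393 for the remaining strains. In 491 regions (0.141%) all 14 others and neither CAST sample had a peak, which ranked CAST at 3 of 8 after PWK (787) and AJ (630). With a single CAST sample left out, 13865 and 19365 regions were called in the remaining one alone. With lists shortened to equal length, 2781 regions were called in both CAST samples alone. No peak means that the threshold of the peak caller was not passed, not that the region was closed.

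Regions of CAST alone were mostly narrow and weak. Their median width was 205 bases, and their median scaled signal 0.163, and 47 of 6249 reached the level of a typical shared region. By position, 1368 (21.9%) were promoter, 298 exonic, 2201 intronic and 2382 intergenic, against 41.0% promoter among shared regions. Repeat sequence filled most of the summit window in 23.6% of them, against 2.16% of shared regions, 38.6% of the regions of PWK alone and 10.6% of those of WSB alone. The regions missing in CAST were wider and stronger, with a median width of 686 bases and a median scaled signal in the others of 0.585. They needed a peak in 14 samples and those of CAST alone in 2, so this contrast follows in part from the definitions.

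Regions found in CAST and 1 other strain were mostly shared with WSB or PWK. Exactly both samples of CAST and of WSB were called in 1164 regions, of CAST and PWK in 1024, and of CAST and any of the 5 classical strains in 12 to 102. All 6 wild-derived samples and no classical sample were called in 478 regions, and the reverse held in 27. The first needs peaks in 6 samples and the second in 10, and the wild-derived lists held more regions. These 2 counts can thus not be set against each other. Of regions missing in 2 strains alone, CAST and PWK had 351, against 10 to 27 for CAST with any other strain.

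Of the 47 regions of CAST alone with a scaled signal of at least 1, 12 were promoter, 4 exonic, 15 intronic and 16 intergenic, and the 2 strongest distal ones lay in exons. A region of 530 bases, all untranslated sequence of Cers5, a ceramide synthase (chr15:99735604-99736133), had a scaled signal of 29.3 in the female and 25.5 in the male. One in Ubqln1, a ubiquitin-binding chaperone (chr13:58177515-58177880), had 10.4 and 8.65 and lay over 364 untranslated bases. An intergenic region 75000 bases from Gm47965 (chr10:126511621-126511804) had 6.99 and 7.33. These values exceed those of most shared regions, and all 14 other samples had no peak there.

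Promoter regions of CAST alone were weaker. At Elk4, an ETS factor, the scaled signal was 1.87 and 1.71, 12117 bases from the outermost start (chr1:132019724-132020498). Plekhg1, a guanine nucleotide exchange factor, had 1.69 and 1.62 at an inner start, and Dock2, a Rac activator of leukocytes, 1.3 and 1.69 at one 551578 bases from the outermost. Abcd4, a lysosomal transporter tied to vitamin B12, had 1.39 and 1.57 at 3945 bases from its outermost start, and Pdss1, which acts in coenzyme Q synthesis, 1.35 and 1.36 upstream of its start. Where the outermost start of these genes had a shared region it was called in neither direction, with 0.32 ± 0.23 for Elk4 (adjusted p = 0.349), -0.57 ± 0.20 for Plekhg1 (adjusted p = 0.055) and 0.34 ± 0.26 for Abcd4 (adjusted p = 0.378).

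Regions called in all 14 others and missing in CAST included starts of channel genes. At the outermost start of Kcna4, a voltage-gated potassium channel (chr2:107289441-107291682), the others had 0.308, 1.36 and 3.44. At an inner start of Kcnn2, a calcium-activated potassium channel, they had 0.25, 1.26 and 3.3, with the PWK samples lowest. The outermost start of Kcnn2 was lower in CAST (-0.71 ± 0.23, adjusted p = 0.0408). Gpld1, a phospholipase that cleaves membrane anchors, had 1.44, 2.59 and 3.7 in the others, 21551 bases from its outermost start. Cep162, a ciliary protein, had 0.339, 2 and 3.76, 43941 bases from its outermost start. Fam213b, a prostaglandin synthase, had 0.723, 1.35 and 2.11 at its outermost start. The PWK female was lowest at both Gpld1 and Cep162.

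Distal regions missing in CAST were strong in the other strains. The region holding the Gm25956 sequence above (chr7:54154800-54157099) had 1.95, 4.22 and 8.15 in the others. That 44250 bases from Stc2, a secreted glycoprotein induced by stress (chr11:31414324-31416070), had 1.06, 5.22 and 6.82. That near Gm26482 (chr7:55710707-55711510) had 2.09, 3.53 and 4.94. The lowest of these other samples still exceeded the sample median.

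Regions of CAST alone gathered in a few places, viewed in windows of 1 Mb and picked out after their values were seen. Windows with at least 10 of them numbered 52 in CAST, 38 in PWK and 0 to 9 in the other strains. Those with at least 20 numbered 7 in CAST and 17 in PWK, and the fullest held 60 in CAST and 75 in PWK. Windows with at least 10 held 847 of the 6249 regions of CAST alone and 866 of the 3385 of PWK alone. Such gathering was thus not particular to CAST. A window on chromosome 3 (91000001 to 92000000) held 60, which were 75.9% of the 79 regions called in both CAST samples there. Another on chromosome 10 (33000001 to 34000000), with the sulfotransferase genes Sult3a1 and Sult3a2, held 60 of 95. Windows on chromosomes 7 and 17 with secretoglobin (Scgb1b) and vomeronasal receptor (Vmn2r101) genes held 10 of 11 and 12 of 14. The signal in these was low, with medians of 0.128 to 0.178 over these 4 windows. Such families consist of near-identical copies whose number can differ between strains, and its part in these counts was not tested.

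Differences were not even along the genome. On chromosome 18, 442 of 1454 shared regions (30.4%) were lower in CAST and 33 higher. On chromosome 19, 122 were higher and 38 lower of 975, and on chromosome 11, 108 and 52 of 1146. The median centred signal of chromosome 18 was -0.40 in the CAST female and -0.35 in the CAST male, and ranged from -0.37 (AJ female) to 0.22 (B6 male) in the others. On chromosome 19 it was 0.42 and 0.35 within a range of -0.64 (B6 male) to 0.50 (NZO male), and on chromosome 11 0.41 and 0.18 within -0.46 (PWK male) to 0.68 (NZO male). On chromosome 10 both CAST samples, at -0.16 and -0.14, were below the 14 others. After centring each sample within each chromosome, 116 regions of chromosome 18 were higher and 214 lower, and the genome-wide totals were 2826 and 5288. Without these 3 chromosomes, 2606 regions were higher and 5016 lower of 37365. Other strains moved on these chromosomes too, with means of -0.33 in AJ on chromosome 18, -0.53 in B6 on chromosome 19 and -0.41 in PWK on chromosome 11. What these shifts come from was not tested.

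**Figure D5:**
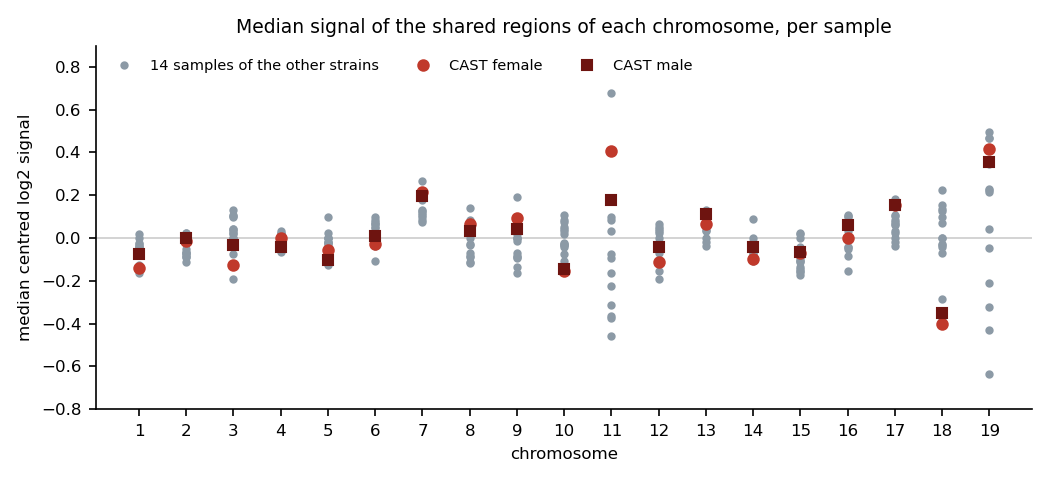
Median centred log2 signal of the shared regions of each chromosome in each sample, with the CAST female as circles, the CAST male as squares and the 14 other samples in grey. Samples spread most on chromosomes 11, 18 and 19, and CAST lies at the low end on chromosome 18.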

How the data were processed

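Islet ATAC-seq peak lists of 16 samples, 1 female and 1 male of each of 8 strains, were used. The authors trimmed adapters with cutadapt 2.0, aligned reads to mm10 with Bowtie2 2.3.4.1, removed unmapped and mitochondrial reads with SAMtools and duplicates with Picard 2.9.2, and ran MOSAiCS on every sample by itself to call peaks (FDR threshold 0.05). Whether read ends were shifted is not given in the sources used here. The deposited lists give for each peak a summit signal and a mean signal, whole numbers not scaled to depth (what the second averages is not given), a −log10 p-value and the summit position. The strain lists of reproducible peaks were not used.

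Touching or overlapping peaks on chromosomes 1 to 19 were merged, and each sample took the highest summit signal in a region. From log2(signal + 1) the sample's own median over regions called in all 16 was subtracted, and the values were fitted with limma 3.58.1 (R 4.3.3) with strain and sex as terms, adjusted by Benjamini-Hochberg (threshold 0.05). The fit had 7 residual and 6.49 prior degrees of freedom. Nothing says how many animals a sample holds. With strain and sex in the fit, p-values measure only the spread between the female and the male within strains. Spread between the other strains does not enter them. On simulated shifts in 40940 regions, 34 of 100 regions shifted by 1 and 87 of 100 shifted by 2 were recovered, and 4 unchanged regions were called. Only the shifted regions differed in CAST there, far fewer than the 8429 called in the real data. The adjusted p-values depend on that number, so recovery in the real comparison may differ. Sequences came from the RefSeq copy of GRCm38 and gene models from GENCODE.

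Regions were named by size of difference where both CAST samples lay outside the range of the others (6 promoter and 4 distal regions in each direction), and by signal where called in CAST alone or missing in CAST (5 promoter and 3 distal each). Distal means over 3 kb from any transcript start, and promoters named are of coding genes. For each gene list the called member with the largest difference in each direction was named by rule, or the member with the largest difference where none was called, and other members were named after their values were seen. A few named items are not reported here. Members and lists were chosen with earlier results of these data known.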

Additional observations from a re-analysis of the deposited data

How the results depend on the processing

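The counts of 2793 higher and 5636 lower regions stayed within 1.5 times under quantile normalization, GC and chromosome centring, a pseudocount of 8, the mean signal, no sex term and lists of equal length. With no centring they were 20427 and 981, with stricter peaks 1505 and 3193, with strain means alone 56 and 430, with CAST against 1 pooled group 581 and 2339, and without strain NZO 4717 higher. Leaving out single samples gave 415 to 4841 higher and 1797 to 7652 lower. CAST minus PWK (5264) gave 30053 calls with no centring, 3045 with stricter peaks and 1710 to 7769 with a sample left out. CAST minus WSB (4656) gave 1607 with no centring, 7134 where 10 of the 14 others sufficed, 2410 with stricter peaks, 2997 with equal list length and 1585 to 6575 with a sample left out. Regions of CAST alone (6249) numbered 3956 with stricter peaks, 2781 with equal list length, 9625 without strain WSB and 6281 to 19365 with a sample left out. Regions missing in CAST (491) numbered 306 with stricter peaks, 38 where peaks had to cover 0.5 of the region, 994 without strain PWK and 493 to 683 with a sample left out. Fewer regions or samples enter under stricter peaks and leave-outs, and the cause of the other changes was not tested.

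Of 749 values of the 20 named shared regions under alternatives, 744 kept direction and call, and 5 lost the call with strain means. Of 1404 values of 37 list genes, 1136 kept both, 253 lost the call, 6 gained it and 9 changed direction. The 41 distal regions with the cAMP response element called higher numbered 2 with strain means and 118 with no centring. With no centring, differences turned positive for Etv1 (0.19), Cadps2 (0.13), Ptprd (0.0023), Edem1 (0.26), Sod2 (0.45), Gbp2 (0.0496) and Jun (0.18), and with the mean signal they turned negative for Kcnj11 and Abcc8 (-0.17 each). Centring within chromosomes, the 1 base merge and leaving out chromosomes 11, 18 and 19 were chosen after seeing the data. No paired analysis was possible because the labels carry no replicate numbers shared between strains. Sex was a term of the fit, and without it 2924 regions were higher and 5720 lower. Read depth per sample was not used here, so its part in missing peaks was not tested, and precision is limited by 2 samples per strain.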
